A study of Mus musculus with 12 samples.

Results

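The nuclear-encoded subunits of respiratory complexes II, III, IV and V were followed in bulk RNA-seq of mouse retina. They were chosen by gene symbol, with earlier results of these data known. All genes whose symbol begins with Uqcr, Cox4 to Cox8 or Atp5 or is Sdha, Sdhb, Sdhc, Sdhd or Cyc1 were taken. This gave 48 of the 25124 genes in each of 2 tables, with 4 genes of complex II, 9 of complex III, 18 of complex IV and 17 of complex V. Of the 48, 47 were above 0 in at least 1 library of each table, and Cox8c was at 0 in all 12 libraries. A mean of at least 0.5 FPKM (fragments per kilobase of transcript, scaled to library depth) was reached by 45 genes in each table. Cox6a2, Cox7b2 and Cox8c were below it and were not tested.

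The retinas came from wild-type mice, with 2 libraries in each of 6 groups. In the first table, animals of 3 months or 18 months had one eye raised to an intraocular pressure (IOP) of 30 mmHg for 1 h and were sampled on day 2 (3mo IOP, 18mo IOP), and the untreated contralateral eyes served as 3mo control and 18mo control. In the second table, animals that were 3 months old at the start received 4 such elevations every other week and were sampled on day 2 after the last (4xIOP), with the contralateral eyes as 4xIOP control. Control eyes were therefore fellow eyes of treated animals, and RNA was taken from single eyes, with the 2 libraries of a group described by the study as biological replicates. The p-values rest on the spread between the 2 libraries of a group, pooled for each gene over all groups of a table. The spread of 3mo control therefore also enters comparisons without that group.

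Complex II (succinate dehydrogenase) passes electrons from succinate to ubiquinone, complex III (the cytochrome bc1 complex) passes them on to cytochrome c, and complex IV (cytochrome c oxidase) passes them to oxygen. Complex V (ATP synthase) uses the proton gradient built by complexes III and IV, and by complex I, to make ATP. Complex II is encoded in the nucleus throughout, whereas the others combine nuclear subunits with a few encoded in mitochondrial DNA, which were not analysed here. Photoreceptors hold dense mitochondria in their inner segments and use much of the ATP of the retina.

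The transcripts of these genes are short, which matters for all that follows. The isoform on which the FPKM rest had a median length of 647 bases, from 314 bases for Atp5k to 2842 bases for Sdha, and 34 of the 48 were under 1000 bases. Of the 45 tested, 31 were under 1000 bases, against 10.8% of the 13731 genes tested in the first table, whose median length was 2772 bases. The libraries differed in how strongly short transcripts were represented. Among other protein-coding genes, the median FPKM of those under 1000 bases divided by the median of those of 4000 bases and over was 2.86 and 8.62 in 3mo control eyes, 6.70 and 5.19 in 3mo IOP, 1.54 and 1.48 in 18mo control and 1.699 and 1.83 in 18mo IOP. This ratio was higher in each 3mo library than in each 18mo library, and it varied most between the 2 libraries of 3mo control. In the second table it was 2.07 and 1.94 in 4xIOP control and 1.92 and 2.83 in 4xIOP. The part of this shift in the age differences below was addressed by a second fit on levels from which the relation to transcript length had been subtracted library by library.

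The libraries held from 39766230 to 59455059 tags, and exons took from 44.2% to 71.5%. Of these exon reads the 48 genes took 0.744% and 1.46% in the 3mo control libraries, 1.23% and 1.08% in 3mo IOP, 0.452% and 0.450% in 18mo control eyes, 0.486% and 0.504% in 18mo IOP, 0.671% and 0.582% in 4xIOP control and 0.608% and 0.778% in 4xIOP. Rod photoreceptor markers, which define the tissue, had 12 of 12 genes above 0 in all libraries and a summed level between 6432 and 32658 FPKM.

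Of the 48 genes, 36 had a promoter in the RefSeq table of GRCm38.p6. A few are shown as 150 bases before the annotated start, 5′ to 3′, with matches to the binding motifs of NRF1 (TGCGCA or CATGCG on either strand), ETS factors (CCGGAA) and TATA-binding protein (TATAAA) in capitals. NRF1 and the ETS factor GABP are known regulators of respiratory genes. Sdha and Sdhb are shown because they are partners in complex II that differed most with age before removal of the length trend. Atp5k is shown because it has the shortest transcript. Cox8a and Cox8b are shown because they are alternative forms of 1 subunit that differed in level and response.
Sdha, chr13:74350241-74350390 (- strand): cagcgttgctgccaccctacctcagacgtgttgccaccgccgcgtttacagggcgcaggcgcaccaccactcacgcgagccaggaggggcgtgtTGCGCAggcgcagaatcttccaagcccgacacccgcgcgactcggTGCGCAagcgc
Sdhb, chr4:140961121-140961270 (+ strand): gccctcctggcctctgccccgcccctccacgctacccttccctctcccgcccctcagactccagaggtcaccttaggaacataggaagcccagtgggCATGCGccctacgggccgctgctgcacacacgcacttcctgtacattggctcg
Atp5k, chr5:108434400-108434549 (- strand): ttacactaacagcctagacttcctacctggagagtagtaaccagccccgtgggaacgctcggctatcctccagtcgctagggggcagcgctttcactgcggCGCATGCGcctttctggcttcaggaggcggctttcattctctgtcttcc
Cox8a, chr19:7217617-7217766 (- strand): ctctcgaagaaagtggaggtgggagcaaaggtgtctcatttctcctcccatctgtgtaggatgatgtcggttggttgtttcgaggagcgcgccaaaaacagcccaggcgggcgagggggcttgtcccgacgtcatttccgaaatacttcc
Cox8b, chr7:140900447-140900596 (- strand): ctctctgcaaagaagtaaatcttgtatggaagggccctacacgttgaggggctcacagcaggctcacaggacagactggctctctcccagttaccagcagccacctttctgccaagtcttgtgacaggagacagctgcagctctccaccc
The stretch of Sdha held TGCGCA at 2 places, that of Sdhb held CATGCG once, and that of Atp5k held CATGCG on both strands in 1 overlapping match. The stretches of Cox8a and Cox8b held none of the 4 motifs. In the 250 bases before the start, TGCGCA was found in 7 of the 36 genes (19.4%) and in 6.66% of all 27025 promoters, and CATGCG in 8 (22.2%) and 5.57%. CCGGAA was found in 11 (30.6%) and 12.2%, and TATAAA in 3 (8.33%) and 13.0%. These are matches of letters and not sites of binding.

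**Figure D1:**
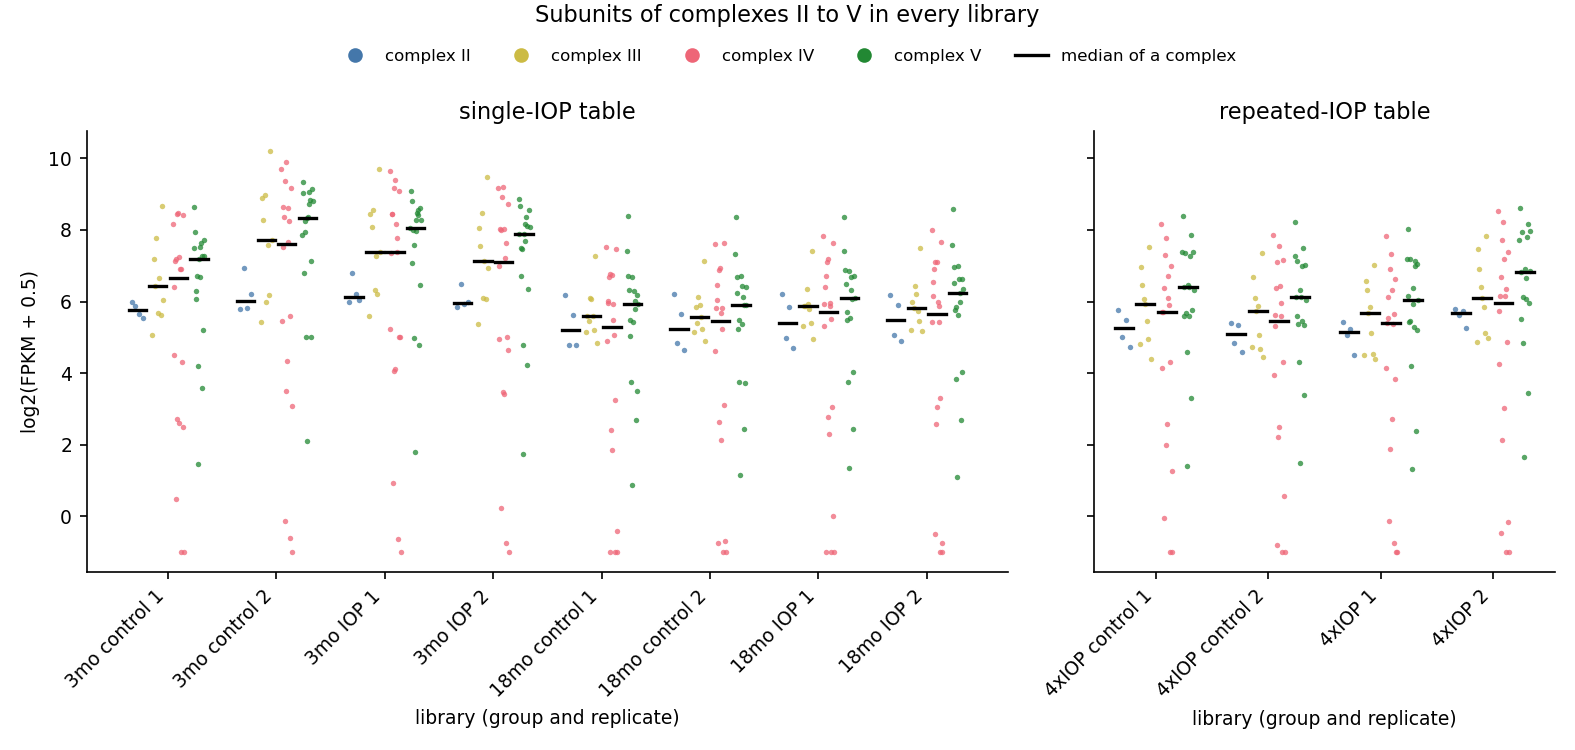
Level of each of the 48 genes as log2(FPKM + 0.5) in each of the 12 libraries, with the first table on the left and the second on the right. Points are genes coloured by complex and black bars are the medians of a complex. The medians of complexes III, IV and V stand higher in the 3mo libraries than in the 18mo libraries, and those of complex II differ least.

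To examine the levels first, FPKM were compared within groups, since they are given per length. Division by length does not remove the differing representation of short transcripts given above. Its part in the order of the genes was not tested. In 3mo control the order began with Uqcrh (792 ± 548 FPKM, SD, n = 2), Cox6c (652 ± 417), Cox4i1 (558 ± 380), Cox6b1 (508 ± 223) and Atp5b (462 ± 90.3). In 18mo control it began with Atp5b (334 ± 3.79), Cox4i1 (189 ± 8.38), Cox8a (188 ± 13.7), Atp5a1 (164 ± 5.77) and Uqcrh (147 ± 10.95). In 4xIOP control Atp5b (316 ± 27.8) again stood first, followed by Cox4i1 (257 ± 38.6) and Atp5k (206 ± 37.9). The first 5 of 3mo control overlapped within their spread, as did Cox4i1 and Cox8a in 18mo control, whereas Atp5b stood clear of the next gene there. At the other end, Cox7b2 had at most 4 reads in a library, Cox6a2 had at most 1.41 FPKM, and for Cox8c a count of 0 allows a level of up to between 0.107 and 0.160 FPKM (3 reads, counting error only).

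The 2 libraries of 3mo control were not alike. Replicate 2 was higher than replicate 1 for 44 of the 45 tested genes, by a median of 1.19 on the log2 scale, and 27 genes differed by 1 or more. It was the highest of the 8 libraries for 35 of the 47 detected genes, and 3mo IOP replicate 1 was the highest for 11. Replicates of 3mo IOP, 18mo control and 18mo IOP differed by a median of 0.24 or less, and no gene differed by 1 or more between them. In the second table, 4xIOP replicate 2 was higher than replicate 1 for 45 of 45 genes, by a median of 0.69. In both cases the library with the higher subunit levels was also the one with the higher ratio of short to long transcripts.

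The first comparison asked how the subunit genes differed between 18 and 3 months in untreated eyes. Calls required that limma's p, adjusted by Benjamini and Hochberg over all 13731 genes, did not exceed 0.05 and that the difference on log2(FPKM + 0.5) was 1 or more in size. Of the 45 tested genes 33 were called lower at 18 months and 0 were called higher, while of all genes 11.6% were called lower and 11.6% higher. By the unadjusted p of limma 36 of the 45 were under 0.05 (all genes 55.1%), and voom on the recovered reads called 33 lower (all genes 15.2%) and 0 higher (all genes 10.9%). Both 18mo libraries lay below both 3mo libraries for 39 genes, a pattern found in 32.8% of all genes, and above them for Sdha alone. The median log2 fold change was -1.72, against 0.16 over all genes (0.0096 when scaled by median-of-ratios factors). The size of this gap depended on the 3mo control library kept and on the normalization, as given at the end. In log2 levels, the median of the 45 minus that of all genes was 3.98 and 5.40 in 3mo control and 2.83 and 2.98 in 18mo control. Leaving out the first 18mo control library left 17 lower calls (all genes 5.75%), and leaving out the second left 9 (all genes 4.12%). With 1 library left in a group, that library is taken to vary like the other groups. By complex, 2 of 4 genes of complex II were called lower (median -0.63), 6 of 9 of complex III (-1.93), 13 of 15 of complex IV (-1.48) and 12 of 17 of complex V (-1.83).

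The same question in pressure-treated eyes compared 18mo IOP with 3mo IOP. Here 34 genes were called lower (all genes 11.6%) and 0 higher (all genes 10.2%), with a median of -1.67 against 0.093 over all genes. The libraries did not overlap for 42 genes with 3mo IOP higher, which held for 34.5% of all genes. The calls by complex were 2 of 4, 6 of 9, 13 of 15 and 13 of 17. Without 3mo IOP replicate 1 there was 1 lower call (all genes 1.94%) and without 3mo IOP replicate 2 there were 4 (all genes 2.34%), while the median relative to all genes, -1.76 with all libraries, was -1.63 and -1.88. Both comparisons called 32 genes, which are 96.97% of the 33 and 94.1% of the 34. They use different libraries, but which control and IOP libraries are the 2 eyes of 1 animal is not given by the labels, and both tests use 1 estimate of the spread, so they are not independent. The age difference was larger than the gap between the 2 young libraries for 34 of 45 genes in control eyes and for 43 of 45 in IOP eyes.

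Among genes of like length the contrast depended on the length taken. Under 500 bases, the median in control eyes was -2.14 for 14 subunit genes and -0.26 for all 432 tested genes of that length, and in IOP eyes -2.05 and -0.34, gaps about as wide as over all lengths. From 500 to 1000 bases it was -1.37 for 17 subunit genes and -1.02 for all 1049 in control eyes, and -1.5002 and -1.07 in IOP eyes, which is closer. Under 1000 bases, 26 of 31 subunit genes were called lower in control eyes against 42.9% of all tested genes of that length, and 27 of 31 against 44.2% in IOP eyes. The median in control eyes was -1.93 for these 31 genes and -0.88 for all genes under 1000 bases. Among the 14 genes of 1000 bases and over, 7 were called lower in control eyes (7.79% of all genes of that length) and 7 in IOP eyes (7.66%), with a median in control eyes of -0.93 against 0.23 for all genes of that length. Across the 45 genes the log2 fold change rose with length, with a Spearman rho of 0.59 in control and 0.58 in IOP eyes, and across all tested genes it was 0.41 and 0.46. These are descriptions across genes of the same libraries, and the tested genes of like length were not limited to protein-coding ones.

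**Figure D2:**
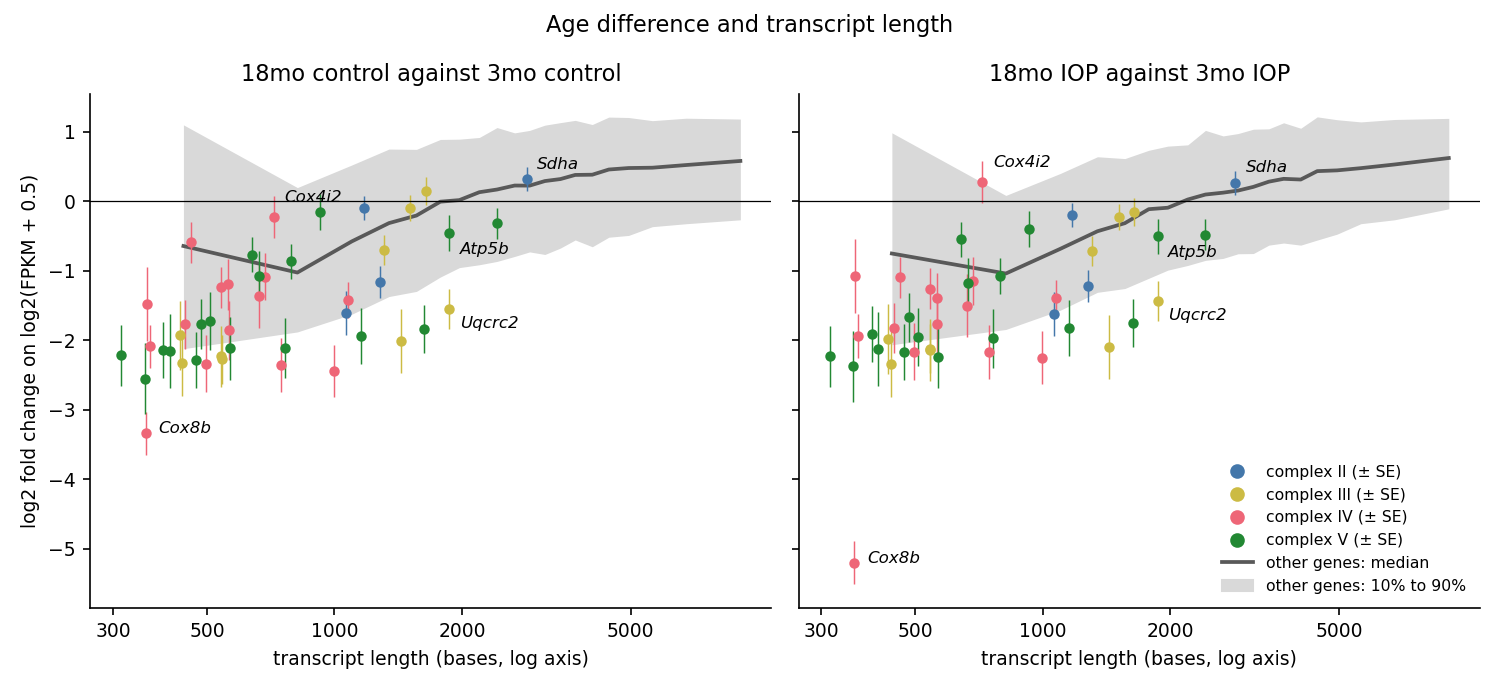
Log2 fold change of 18 against 3 months (vertical axis, ± SE) against transcript length in bases (log axis), in control eyes on the left and IOP eyes on the right. Points are the 45 tested subunit genes coloured by complex, the grey line is the median of the other tested genes and the band holds their middle 80%. Of these genes 43 lie below 0 in each panel, Sdha is the highest in control eyes at 0.32, and Cox8b is the lowest in both panels at -3.33 and -5.2.

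After removal of the length trend, 19 of 45 genes were called lower and 0 higher in control eyes, against 7.76% and 8.36% of all genes. The median was then -0.71, against 0.098 over all genes. In IOP eyes 17 were lower and 1 was higher, against 7.09% and 7.63%, with a median of -0.74. All 17 were among the 19, which makes 89.5% of the 19. Of the 32 genes called lower in both comparisons, Cox6b1 and Atp5mpl kept the call in control eyes alone, and 13 kept it in neither, namely Sdhb and Sdhd of complex II, Uqcr11 of complex III, Cox4i1, Cox5a, Cox5b, Cox6a1, Cox7a2l, Cox7c and Cox8a of complex IV and Atp5g3, Atp5j and Atp5l of complex V. By complex, 0 of 4 genes of complex II, 5 of 9 of complex III, 5 of 15 of complex IV and 9 of 17 of complex V remained called lower in control eyes. When a trend with GC content was removed as well, a step chosen after seeing the data, 16 genes were called lower in control eyes (all genes 4.07%) and 12 in IOP eyes (all genes 4.61%). Uqcr11 was then called lower in both comparisons again. The difference between the subunit median and the median of all genes thus went from -1.88 to -0.81 with length removed and to -0.71 with both removed.

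**Figure D3:**
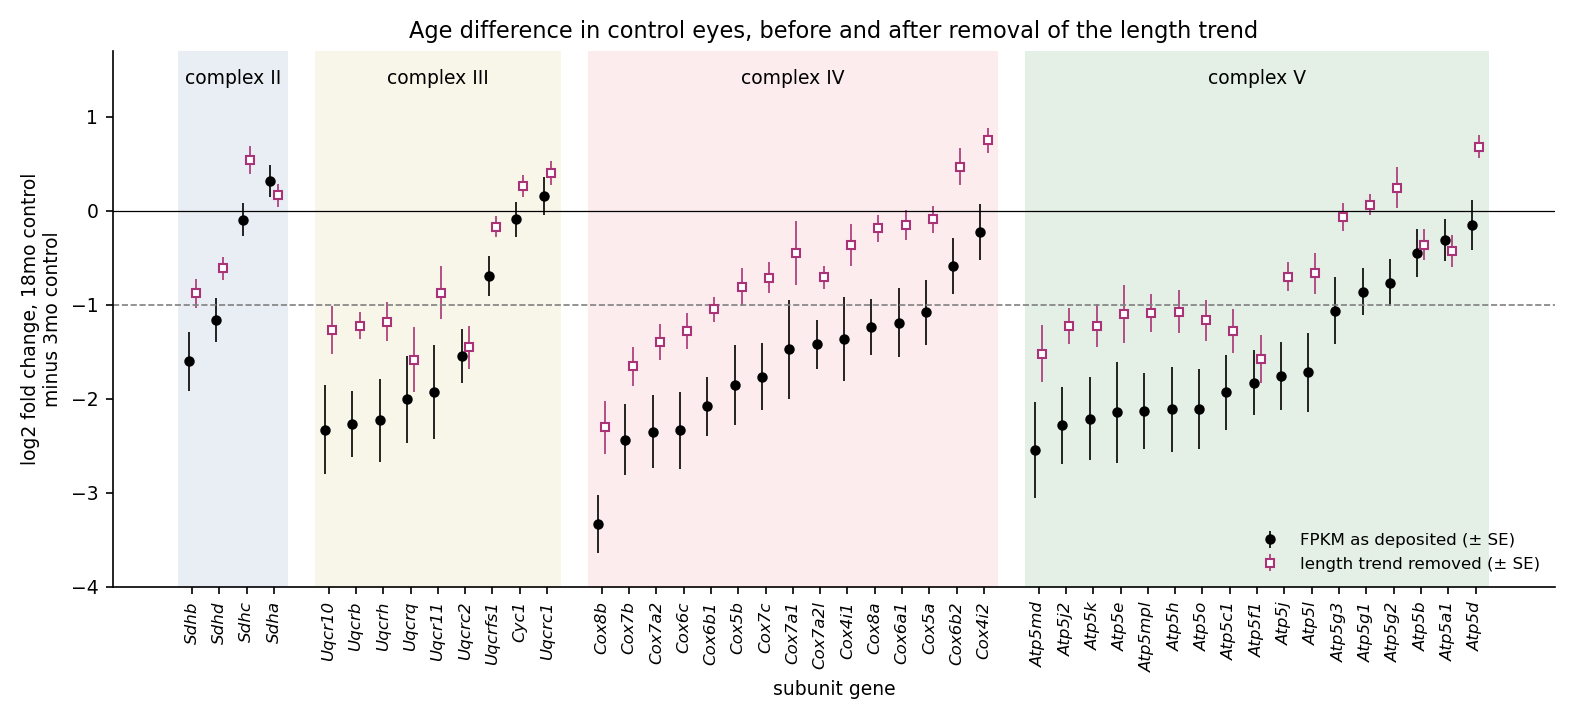
Log2 fold change of 18mo control against 3mo control for each of the 45 tested genes (± SE), grouped by complex. Filled circles are from the FPKM as deposited and open squares from the fit after removal of each library's length trend, and the dashed line marks -1. Removing the trend moved most short genes towards 0, while Uqcrc2 went from -1.55 to -1.46 and Atp5f1 from -1.83 to -1.57.

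Complex II was split between its subunits. Sdha, the flavoprotein that oxidizes succinate, was at 62.6 and 54.4 FPKM in 3mo control eyes, 63.1 and 57.2 in 3mo IOP, 72.5 and 72.9 in 18mo control and 73.3 and 71.5 in 18mo IOP. Its 18mo libraries were all above its 3mo libraries, by a log2 fold change of 0.32 ± 0.17 (adjusted p = 0.159) in control and 0.27 ± 0.17 (0.233) in IOP eyes, which did not pass the test, nor did they after removal of the length trend (0.16 and 0.13). Sdhb, the iron-sulfur subunit that takes the electrons from Sdha, was at 58.4 and 122 FPKM in 3mo control eyes, 112 and 88.8 in 3mo IOP, 26.9 and 28.1 in 18mo control and 31.2 and 33.02 in 18mo IOP. All 18mo libraries were below all 3mo libraries, and Sdhb fell by 1.604 ± 0.32 on the log2 scale (limma, adjusted p = 0.00823) in control eyes and by 1.62 ± 0.32 (0.00903) in IOP eyes. In the same libraries Sdhb as a share of Sdha was 93.4% and 225% in 3mo control eyes, 177% and 155% in 3mo IOP, 37.1% and 38.5% in 18mo control and 42.6% and 46.2% in 18mo IOP. The share was lower in every 18mo library. The 2 transcripts differ in length (1063 and 2842 bases), and after removal of the length trend Sdhb stood at -0.88 ± 0.16 in control eyes, past the adjusted p (0.00446) but under the fold required, and with GC content removed too it was called, at -1.03. In IOP eyes it was called under neither removal (-0.87 and -0.99). Of the membrane anchors that hold the ubiquinone site, Sdhd was called lower in both comparisons (-1.16 ± 0.23 and -1.22 ± 0.23) and in neither after removal of the length trend (-0.62 and -0.64). Sdhc was at 49.7 and 56.3 FPKM in 3mo control eyes, 72.8 and 60.8 in 3mo IOP, 49.2 and 49.7 in 18mo control and 56.7 and 59.3 in 18mo IOP, with fold changes of -0.097 ± 0.18 and -0.197 ± 0.18 that did not pass the test. After removal of the length trend these turned to 0.54 and 0.47, past the adjusted p (0.02104 and 0.0404) but under the fold required.

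Complex III is described from its electron-carrying subunits to its small ones. Cyc1, the heme protein cytochrome c1, was at 33.04 and 42.3 FPKM in 3mo control eyes, 47.5 and 41.1 in 3mo IOP, 35.1 and 34.9 in 18mo control and 39.7 and 36.1 in 18mo IOP. These groups overlapped in control eyes, with a log2 fold change of -0.094 ± 0.19 (adjusted p = 0.697). Uqcrfs1, the Rieske iron-sulfur protein, was at 48.4 and 72.5 FPKM in 3mo control eyes, 73.8 and 67.01 in 3mo IOP, 36.1 and 36.7 in 18mo control and 42.03 and 43.02 in 18mo IOP. Its 18mo levels were below all 3mo levels, and the change of -0.696 ± 0.21 (adjusted p = 0.0308) was under the fold required. The small subunits Uqcr10, Uqcr11, Uqcrb, Uqcrh and Uqcrq, which surround the catalytic core, were all called lower in both comparisons, between -2.33 and -1.93 in control eyes. Uqcr10 was at 145 and 478 FPKM in 3mo control eyes, 351 and 265 in 3mo IOP, 47.4 and 57.1 in 18mo control and 57.7 and 62.5 in 18mo IOP. The 3mo control libraries were far apart, and all 18mo libraries lay below both (-2.33 ± 0.48, adjusted p = 0.00885 in control and -2.33 ± 0.48, 0.00978 in IOP eyes). Uqcr11, the shortest transcript of the complex at 431 bases, was at 86.7 and 310.3 FPKM in 3mo control eyes, 271 and 188 in 3mo IOP, 43.6 and 41.8 in 18mo control and 58.4 and 55.6 in 18mo IOP (-1.93 ± 0.503, adjusted p = 0.0177), also without overlap.

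The core proteins of complex III, Uqcrc1 and Uqcrc2, are a pair of like length, 1641 and 1866 bases. They were set side by side after their values were seen. Uqcrc1 was at 50.7 and 62.4 FPKM in 3mo control eyes, 79.9 and 67.98 in 3mo IOP, 66.2 and 59.1 in 18mo control and 60.5 and 72.8 in 18mo IOP. Uqcrc2, the longest transcript of the complex, was at 100.3 and 193 FPKM in 3mo control eyes, 154 and 139 in 3mo IOP, 47.6 and 46.7 in 18mo control and 55.1 and 52.5 in 18mo IOP. Uqcrc1 overlapped between the ages, while each 18mo level of Uqcrc2 was below each 3mo level. The log2 fold changes in control eyes were 0.15 ± 0.2 (adjusted p = 0.555) and -1.55 ± 0.29 (0.00732), and after removal of the length trend 0.402 ± 0.13 and -1.46 ± 0.23, with Uqcrc2 still called. With GC content removed too they were 0.030 and -0.99, and Uqcrc2 was then under the fold required. The difference between the 2 genes was not tested.

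The nuclear subunits of complex IV surround a core encoded by mitochondrial DNA. Cox4i1, the common form of the largest nuclear subunit, was at 289 and 827 FPKM in 3mo control eyes, 803 and 573 in 3mo IOP, 184 and 195 in 18mo control and 227 and 253 in 18mo IOP. The 3mo libraries spanned a wide range and all exceeded the 18mo libraries, and the fall of -1.37 ± 0.45 (limma, adjusted p = 0.0384) was called in control and, at -1.5 ± 0.45 (0.0304), in IOP eyes. Neither was called after removal of the length trend (-0.37 and -0.48). Cox5a, which binds next to Cox4, was at 84.3 and 185 FPKM in 3mo control eyes, 163 and 127 in 3mo IOP, 61.6 and 56.1 in 18mo control and 59.9 and 70.3 in 18mo IOP. It did not overlap between ages, and its fall of -1.08 ± 0.34 (adjusted p = 0.0345) went to -0.092 without the length trend. With GC content removed too, the direction of Cox5a turned in control eyes, as given at the end. The largest falls of complex IV other than Cox8b were those of Cox7b, Cox7a2 and Cox6c. Cox7b, a small transmembrane subunit, was at 120.4 and 304 FPKM in 3mo control eyes, 221 and 200.2 in 3mo IOP, 32.9 and 37.2 in 18mo control and 45.3 and 42.6 in 18mo IOP. Cox7a2, the form of subunit 7a found in most tissues, was at 151 and 394 FPKM in 3mo control eyes, 286 and 259 in 3mo IOP, 44.6 and 50.6 in 18mo control and 58.2 and 62.3 in 18mo IOP. Cox6c, another transmembrane subunit, was at 356 and 947 FPKM in 3mo control eyes, 672 and 588 in 3mo IOP, 107 and 123 in 18mo control and 144 and 136 in 18mo IOP. For all 3 the ages were fully apart, with log2 fold changes of -2.44 ± 0.38, -2.35 ± 0.39 and -2.34 ± 0.41 in control eyes (limma, adjusted p = 0.00543, 0.00586 and 0.00647) and -2.25 ± 0.38, -2.17 ± 0.39 and -2.16 ± 0.41 in IOP eyes. Each was still called after removal of the length trend, at -1.66, -1.398 and -1.28 in control eyes. With GC content removed too, Cox7a2 was called in both comparisons (-1.41 and -1.22), Cox6c in control eyes but not in IOP eyes (-1.11 and -0.96) and Cox7b in neither (-0.96 and -0.89).

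Several complex IV subunits have a second form, and the levels of both forms are given here. Cox4i2, the form of subunit 4 known for its response to oxygen in lung, was at 22.1 and 43.3 FPKM in 3mo control eyes, 36.8 and 30.5 in 3mo IOP, 29.1 and 24.1 in 18mo control and 38.9 and 42.6 in 18mo IOP. The groups overlapped in control eyes (-0.22 ± 0.298, adjusted p = 0.557), while in IOP eyes both 18mo libraries lay above both 3mo libraries (0.28 ± 0.298, adjusted p = 0.466). As a share of Cox4i1, a transcript of like length (662 bases against 720), Cox4i2 was 7.63% and 5.24% in 3mo control eyes, 4.58% and 5.32% in 3mo IOP, 15.8% and 12.3% in 18mo control and 17.2% and 16.9% in 18mo IOP. Each 18mo share was above each 3mo share, and with 2 libraries against 2 an exact permutation test cannot give a two-sided p below 0.333. After removal of the length trend Cox4i2 stood at 0.75 ± 0.13 in control eyes (adjusted p = 0.00407, under the fold required) and was called higher in IOP eyes at 1.27 ± 0.13 (0.00147), the only gene of the 45 called higher at 18 months in these fits.

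Among the other alternative forms, Cox6a1, the common form of subunit 6a, was at 144 and 326 FPKM in 3mo control eyes, 347 and 253 in 3mo IOP, 102 and 88.1 in 18mo control and 105 and 120.1 in 18mo IOP and was called lower in both comparisons (-1.19 ± 0.37 and -1.396 ± 0.37), but in neither after removal of the length trend (-0.15 and -0.33). Cox6a2, the heart and muscle form, was at 0.884 and 0.416 FPKM in 3mo control eyes, 1.41 and 0.661 in 3mo IOP, 0 and 0.098 in 18mo control and 0 and 0.206 in 18mo IOP and was not tested. Cox6b1, the common form of subunit 6b on the intermembrane side, was at 351 and 666 FPKM in 3mo control eyes, 573 and 486 in 3mo IOP, 109 and 118 in 18mo control and 138 and 137 in 18mo IOP and was called lower (-2.08 ± 0.31 and -1.94 ± 0.31), which held without the length trend in control eyes but not in IOP eyes (-1.05 and -0.88). Cox6b2, the form known from testis, was at 6.09 and 10.8 FPKM in 3mo control eyes, 16.2 and 10.6 in 3mo IOP, 4.77 and 5.73 in 18mo control and 6.39 and 5.46 in 18mo IOP, and the change of -0.59 ± 0.295 (adjusted p = 0.131) in control eyes did not pass while that of -1.09 ± 0.295 (0.0222) in IOP eyes did. Without the length trend these were 0.47 and -0.013, and neither was called. For all 4 the ages were apart within control and within IOP eyes, and the muscle and testis forms were far under the common ones throughout.

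Cox7a1, the heart and muscle form of subunit 7a, was at 5.55 and 19.6 FPKM in 3mo control eyes, 16.7 and 10.1 in 3mo IOP, 3.105 and 3.86 in 18mo control and 4.45 and 7.85 in 18mo IOP. Its fall in control eyes was called by a narrow margin (-1.48 ± 0.53, adjusted p = 0.0493), and in IOP eyes it did not pass (-1.07 ± 0.53, adjusted p = 0.129). After removal of the length trend Cox7a1 was called in neither. Cox7a2l, which carries the name of a subunit but is known as a factor that joins complexes III and IV into supercomplexes, was at 119.8 and 203 FPKM in 3mo control eyes, 168 and 149.5 in 3mo IOP, 59.97 and 55.8 in 18mo control and 62.02 and 58.3 in 18mo IOP. It was called lower in both comparisons (-1.42 ± 0.26 and -1.39 ± 0.26), but in neither after removal of the length trend (-0.71 and -0.65). As a share of Cox7a2 it was 79.2% and 51.6% in 3mo control eyes, 58.5% and 57.7% in 3mo IOP, 135% and 110.3% in 18mo control and 107% and 93.6% in 18mo IOP, with each 18mo share above each 3mo share, and the transcripts differ in length (1075 and 748 bases).

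Of the 3 forms of subunit 8, Cox8c was at 0 throughout. Cox8a, the common form, was at 340.3 and 576 FPKM in 3mo control eyes, 549 and 424 in 3mo IOP, 178 and 198 in 18mo control and 199.9 and 204 in 18mo IOP, lower at 18 months in all libraries (-1.24 ± 0.296, adjusted p = 0.0134), and was not called after removal of the length trend (-0.19). Cox8b, the form of heart, skeletal muscle and brown fat and the shortest transcript of the complex at 359 bases, was at 5.17 and 7.87 FPKM in 3mo control eyes, 31.9 and 24.4 in 3mo IOP, 0.254 and 0.119 in 18mo control and 0.507 and 0.094 in 18mo IOP. The 18mo values rest on between 2 and 10 reads per library, and the 3mo values on between 77 and 623. Cox8b had the largest fall of the 45 in both age comparisons, -3.33 ± 0.31 (adjusted p = 0.00265) in control and -5.2 ± 0.31 (0.0009499) in IOP eyes. These sizes depend on the value added before the logarithm, and with 0.1 in place of 0.5 they were -4.54 and -6.35. They remained called after removal of the length trend (-2.31 and -4.15). Markers of the retinal pigment epithelium, which borders the retina and can be carried over in dissection, were also lower at 18 months. The summed level of 10 such genes, with Mlana and Dct at 0 in 18mo control replicate 2, Tyr at 0 in 18mo IOP replicate 2 and Mlana at 0 in 4xIOP replicate 1, was 222 and 206 FPKM in 3mo control eyes, 702 and 305 in 3mo IOP, 12.3 and 2.86 in 18mo control and 4.93 and 1.57 in 18mo IOP, so that every 18mo sum lay below every 3mo sum. Striated muscle markers summed to 7.34 and 12.9 FPKM in the 3mo control libraries, 27.2 and 6.97 in 3mo IOP and from 3.597 to 4.504 in the 18mo libraries. Their part in the levels of Cox8b was not tested.

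**Figure D4:**
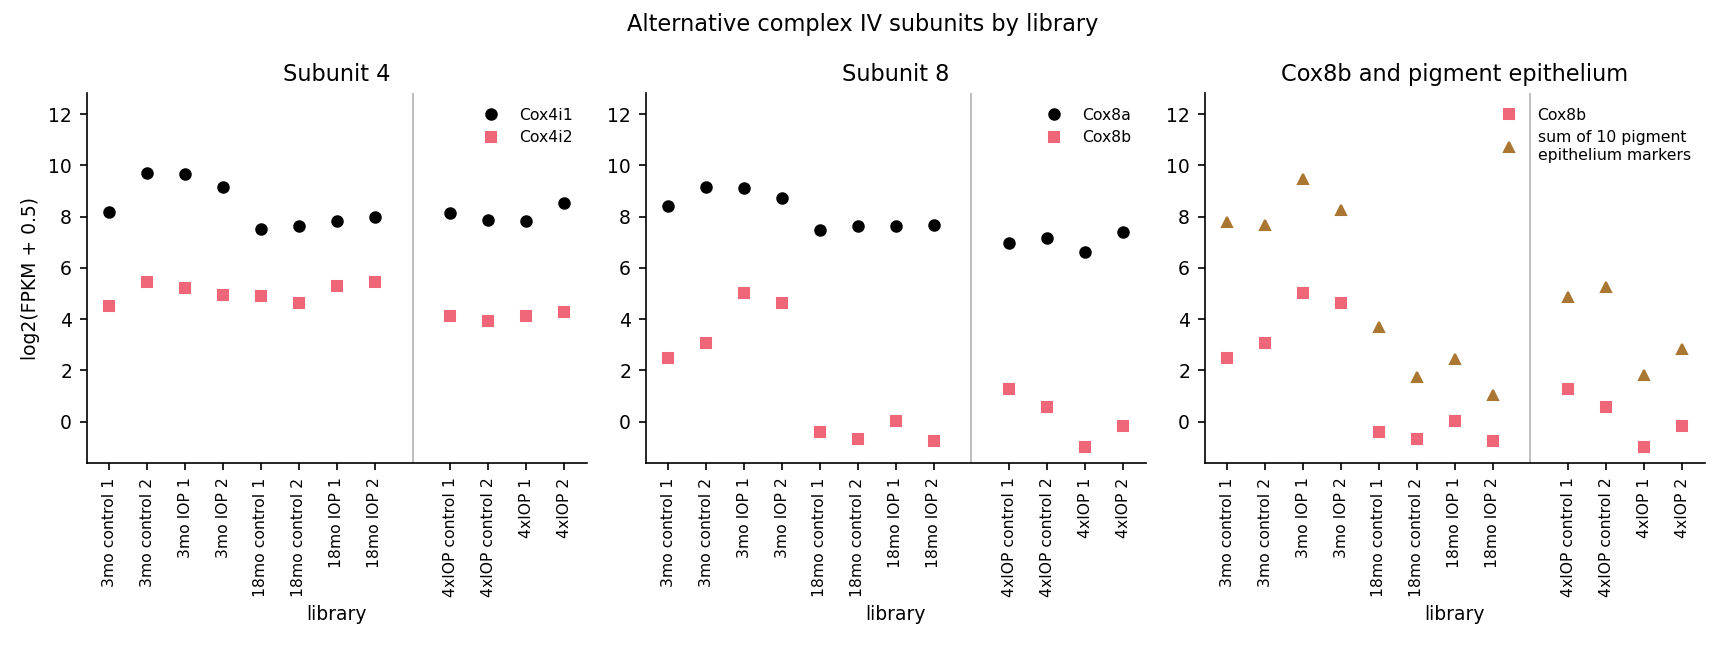
Level as log2(FPKM + 0.5) in each library for Cox4i1 and Cox4i2 on the left, for Cox8a and Cox8b in the middle and for Cox8b with the summed level of 10 retinal pigment epithelium markers on the right. The grey vertical line separates the tables, which were normalized separately. Cox4i1 is lower in all 18mo libraries than in all 3mo libraries whereas Cox4i2 overlaps, and Cox8b and the pigment epithelium markers are both highest in 3mo IOP replicate 1 (31.9 and 702 FPKM).

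In complex V the catalytic head, the stalks that connect it and the membrane part are taken in turn. Atp5a1, the alpha subunit and the longest transcript of the complex, was at 179.7 and 233 FPKM in 3mo control eyes, 268 and 237 in 3mo IOP, 169 and 160.4 in 18mo control and 169.6 and 192 in 18mo IOP. Atp5b, the catalytic beta subunit, was at 398 and 526 FPKM in 3mo control eyes, 548 and 462 in 3mo IOP, 337 and 331 in 18mo control and 328 and 383 in 18mo IOP. Within control and within IOP eyes both 18mo libraries were below both 3mo libraries for each gene, by -0.31 ± 0.22 (adjusted p = 0.265) and -0.45 ± 0.25 (0.172) in control and -0.48 ± 0.22 (0.109) and -0.504 ± 0.25 (0.139) in IOP eyes, none of which passed the test. Atp5d, the delta subunit of the central stalk, had changes of -0.15 ± 0.26 and -0.39 ± 0.26 that did not pass either. Without the length trend its direction turned, to 0.68 and 0.46, past the adjusted p (0.00453 and 0.0203) but under the fold required. The remaining central stalk subunits Atp5c1 (gamma) and Atp5e (epsilon) were called lower in both comparisons, at -1.93 ± 0.4 and -2.15 ± 0.53 in control eyes. So were the peripheral stalk subunits Atp5f1 (b), Atp5h (d), Atp5j (F6) and Atp5o (OSCP), between -2.12 and -1.76.

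Atp5f1 may be set beside Atp5b, which has a transcript of like length (1630 and 1867 bases), a pair chosen after the values were seen. Atp5f1 was at 105 and 243 FPKM in 3mo control eyes, 193 and 175 in 3mo IOP, 44.5 and 44.6 in 18mo control and 51.9 and 56.6 in 18mo IOP. All its 3mo libraries were above all its 18mo libraries, and its change of -1.83 ± 0.35 became -1.57 ± 0.25 (adjusted p = 0.00352) after removal of the length trend, against -0.36 ± 0.16 (0.1005) for Atp5b. Atp5h was at 102 and 326 FPKM in 3mo control eyes, 249.8 and 205 in 3mo IOP, 42.9 and 40.6 in 18mo control and 46.3 and 48.9 in 18mo IOP, with falls of -2.12 ± 0.45 (adjusted p = 0.00989) in control and -2.24 ± 0.45 (0.00959) in IOP eyes, both still called without the length trend. Both genes share much sequence with other loci, as given below.

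Of the membrane part, Atp5k, the e subunit that helps ATP synthase to form dimers and the shortest transcript of all, was at 153 and 459.9 FPKM in 3mo control eyes, 339 and 274 in 3mo IOP, 55 and 58.9 in 18mo control and 66.3 and 63.3 in 18mo IOP. It fell in both comparisons (-2.21 ± 0.44, adjusted p = 0.00822, and -2.23 ± 0.44, 0.00903), and was called without the length trend too (-1.22 and -1.21). Atp5md, a small accessory subunit also known as Usmg5, was at 36.1 and 139.7 FPKM in 3mo control eyes, 87.9 and 80.3 in 3mo IOP, 10.8 and 12.7 in 18mo control and 15.7 and 15.9 in 18mo IOP. It had the second largest fall of the 45 genes in both comparisons, -2.55 ± 0.51 (adjusted p = 0.00833) and -2.37 ± 0.51 (0.0113). Atp5j2, Atp5l and Atp5mpl were called lower in both as well. Without the length trend Atp5j2 was called in both, Atp5mpl in control eyes alone and Atp5l in neither.

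Subunit c, which forms the rotor ring, is encoded by 3 genes for 1 mature protein. Atp5g3 was the most abundant at 145 and 322 FPKM in 3mo control eyes, 312 and 236 in 3mo IOP, 102 and 103 in 18mo control and 114 and 127 in 18mo IOP. Atp5g1 was at 17.8 and 31.7 FPKM in 3mo control eyes, 30.8 and 26.97 in 3mo IOP, 12.9 and 12.83 in 18mo control and 13.03 and 13.8 in 18mo IOP, and Atp5g2 was at 2.26 and 3.76 FPKM in 3mo control eyes, 2.96 and 2.85 in 3mo IOP, 1.32 and 1.74 in 18mo control and 2.05 and 1.63 in 18mo IOP. All 3 were lower at 18 months without overlap in control eyes, at -1.07 ± 0.36 (adjusted p = 0.03999), -0.86 ± 0.25 (0.0268) and -0.77 ± 0.25 (0.0374), and only Atp5g3 passed the fold required there. In IOP eyes Atp5g3 and Atp5g1 were called (-1.17 ± 0.36 and -1.07 ± 0.25). None was called in either comparison after removal of the length trend, when they stood at -0.068, 0.063 and 0.25 in control eyes. With GC content removed too, the direction of Atp5g1 turned in IOP eyes, as given at the end. Levels of Atp5g2 are uncertain for another reason. Of the 48 genes, 17 share at least 100 bases at 97% identity or more with another annotated gene, and for 7 the shared stretch covers at least 50% of the transcript (Atp5o 92.0%, Atp5g2 88.2%, Atp5h 77.6%, Atp5l 72.2%, Atp5f1 64.6%, Uqcrb 62.8% and Cox7c 58.3%). The authors counted uniquely mapped tags only, and the levels of these 7 genes are uncertain.

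Genes that build, feed or regulate the complexes were taken from 4 lists. Of 41 assembly factors of complexes II to V, 19 were called lower in control and 19 in IOP eyes, against 11.6% of all genes in each comparison, with medians of -0.76 and -0.85. Without the length trend 5 and 7 were called lower, against 7.76% and 7.09%. Those with the lowest values included Pet100 (-2.33 ± 0.52, adjusted p = 0.0110) and Coa6 (-2.15 ± 0.39, 0.00688), which serve complex IV, and Sdhaf4 (-2.20 ± 0.37, 0.00602), which acts on Sdha during assembly. Of 19 enzymes of the tricarboxylic acid cycle 4 and 3 were called lower, against 11.6% of all genes in each comparison. Of 22 electron carriers and carriers of ATP, ADP and phosphate 6 and 4 were called lower. Without the length trend 3 and 1 of the cycle enzymes and 4 and 1 of the carriers were called lower, against 7.76% and 7.09%. Of 19 regulators of mitochondrial biogenesis, Tfb1m (-1.46 ± 0.23, adjusted p = 0.00562) was the only one called in control eyes. In IOP eyes Tfb1m and Polg2 were called lower and Polg higher, against 10.2% of all genes called higher. None of these calls held without the length trend, when Tfb1m stood at -0.99 in control eyes and, in IOP eyes, Tfb1m stood at -0.66, Polg2 at -0.57 and Polg at 0.5004, while Tfam, which packages mitochondrial DNA, was then called lower in IOP eyes (-1.17, limma adjusted p = 0.00727). These lists have median lengths of 1187, 2391, 1668 and 3909 bases, and whether they differ from the subunit genes beyond length was not tested.

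Cell type markers also differed with age in these libraries. The 12 rod markers summed to between 27822 and 32658 FPKM in the 3mo libraries and between 15135 and 22427 in the 18mo libraries, with 2 of 12 called lower in each age comparison, against 11.6% of all genes. Of 11 tested retinal ganglion cell markers 7 and 10 were called lower, and of 9 Müller glia markers 5 and 7 were called higher, against 11.6% and 10.2% of all genes. Of 11 microglia and leukocyte markers 6 were called higher in each, of 7 smooth muscle and pericyte markers 4 were called higher in each and 3 lower in IOP eyes, and of 5 blood markers 1 was called higher in control eyes. In bulk tissue fewer cells of a type and less RNA per cell cannot be told apart, and the part of these shifts in the subunit levels was not tested.

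The next comparisons asked whether a single pressure elevation changed the subunit genes at either age. In 3mo IOP against 3mo control, Cox8b was the only gene of the 45 called higher (all genes 0.568%) and 0 were called lower (all genes 0.00728%). The median was 0.20 against 0.13 over all genes, 1 gene was under an unadjusted p of 0.05 (all genes 8.51%), and voom called 0. The libraries of 3mo IOP lay above both of 3mo control for 4 genes (all genes 28.6%). With the values given above, Cox8b rose by 2.04 ± 0.31 on the log2 scale (limma, adjusted p = 0.0355). The call was not made with 0.1 added before the logarithm, without a filter on low values, with median-of-ratios factors, by quantile normalization, by voom or with a replicate block, where the adjusted p lay between 0.0668 and 0.165. It was also lost without 3mo control replicate 1 (adjusted p = 0.149), 3mo IOP replicate 1 (0.327) or 3mo IOP replicate 2 (0.115). Its fold change lay between 1.74 and 2.24 in these alternatives. The summed level of the pigment epithelium markers was highest in 3mo IOP replicate 1, as were Cox8b and the summed striated muscle markers. The sum of 9 smooth muscle and pericyte markers was also highest there, at 11.7 and 10.6 FPKM in 3mo control eyes and 102 and 45.1 in 3mo IOP. In 3mo IOP replicate 2 Cox8b was at 24.4 FPKM. There the pigment epithelium sum (305 FPKM) was above both 3mo control sums (222 and 206). The striated muscle sum (6.97 FPKM) was below both (7.34 and 12.9). The part of these markers was not tested. The median of the 45 above that of all genes depended on 1 library, as it went from 0.066 to -0.58 without 3mo control replicate 1 and to 0.71 without replicate 2, when 8 genes were called higher (all genes 1.84%).

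In 18mo IOP against 18mo control 0 genes were called higher (all genes 0.117%) and 0 lower (all genes 0.00728%) by limma, 0 had an unadjusted p under 0.05 (all genes 9.45%), and voom called 0. Both 18mo IOP libraries lay above both 18mo control libraries for 34 of the 45 genes, a pattern held by 36.5% of all genes. The sizes were small, with a median of 0.22 against 0.089 over all genes and 0.21 over genes under 1000 bases. The smallest p-values were those of Cox4i2 (0.61 ± 0.298, limma adjusted p = 0.624), Cox7a1 (0.698 ± 0.53, 0.922) and Sdhc (0.23 ± 0.18, 0.927), each with both IOP libraries above both controls. The ratio of short to long transcripts was also higher in both 18mo IOP libraries, and after removal of the length trend the median stood 0.033 above that of all genes.

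Whether the response to pressure differed between the ages was tested as an interaction, judged by the adjusted p alone. It was past the threshold for 0 of 45 genes and for 0% of all genes in either direction, with 218 of the 13731 genes and 1 of the 45 under an unadjusted p of 0.05, and voom called 0. That gene was Cox8b (-1.87 ± 0.44), whose p adjusted over all genes by limma was 0.9999. Next in order were Cox6b2 (-0.499 ± 0.42) and Cox4i2 (0.502 ± 0.42). The standard error of the interaction had a median of 0.50 on the log2 scale over the 45 genes, against 0.36 for a single pressure comparison.

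**Figure D5:**
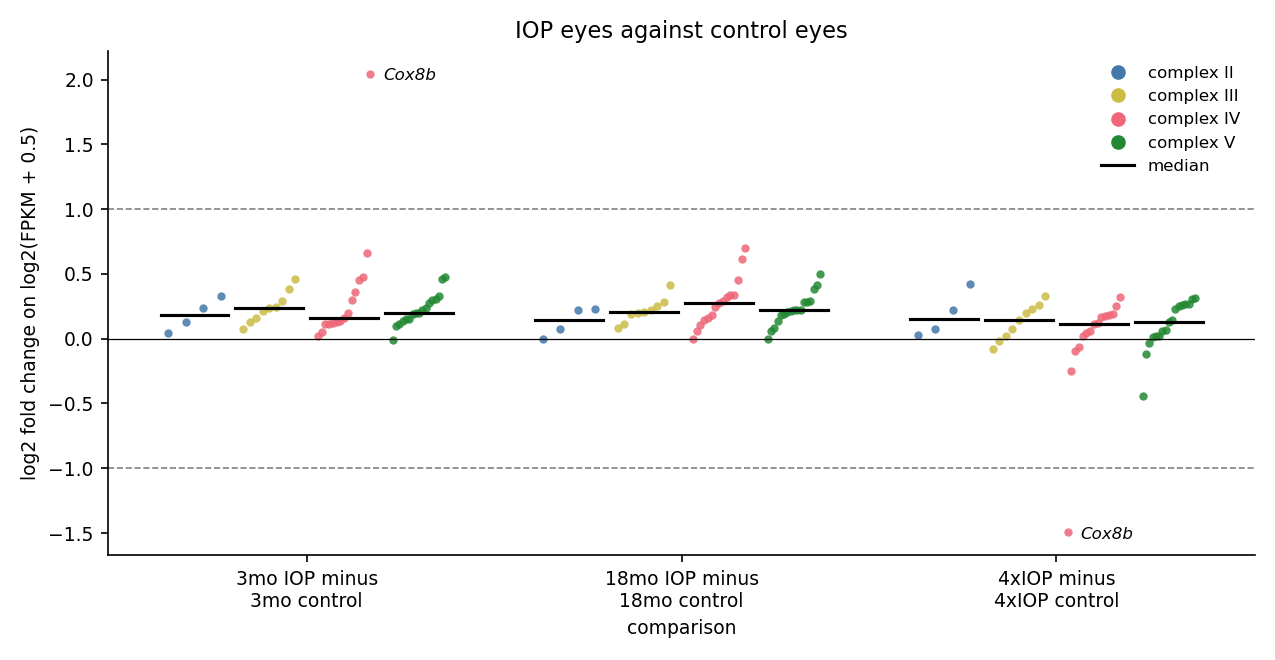
Log2 fold change on log2(FPKM + 0.5) of IOP against control eyes for the 45 tested genes in 3mo, 18mo and 4xIOP retinas. Points are genes coloured by complex, black bars are the medians of a complex and dashed lines mark changes of 1 in either direction. All genes other than Cox8b lie within the dashed lines in all 3 comparisons.

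Repeated elevation was compared within the second table, whose levels were normalized apart from the first. In 4xIOP against 4xIOP control 0 of 45 genes were called higher, against 5.45% of all 13718 genes, and Cox8b alone was called lower, against 0.693%. The median was 0.12 against 0.096 over all genes, and 1 gene was under an unadjusted p of 0.05 by limma (all genes 15.4%) as by voom (17.2%), which called 0. Both 4xIOP libraries lay above both controls for 3 genes (all genes 27.7%). Cox8b was at 1.89 and 0.987 FPKM in 4xIOP control and 0 and 0.395 in 4xIOP, which are 27, 15, 0 and 6 reads, and fell by 1.495 ± 0.33 (limma, adjusted p = 0.0108). This size depends on the value added before the logarithm, at -2.73 with 0.1 and -1.02 with 1, and was -3.92 by voom. A count of 0 allows up to 3 reads, between 0.149 and 0.210 FPKM in these libraries. The call was lost without a filter on low values (adjusted p = 0.101) and by voom (0.0914). Cox8b was not tested at a mean of 2 FPKM, and the call was also lost without 4xIOP control replicate 1 (0.117), 4xIOP replicate 1 (0.131) or 4xIOP replicate 2 (0.0579). The pigment epithelium markers summed to 28.6 and 38.0 FPKM in 4xIOP control and 3.04 and 6.72 in 4xIOP. The 12 lens markers summed to 5.21 and 0.774 FPKM in 4xIOP control and 62.5 and 117 in 4xIOP. The 12 rod markers summed to 13679 and 14356 FPKM in 4xIOP control and 6432 and 9786 in 4xIOP, with a median log2 fold change of -0.89. In the same comparison 10 of 11 microglia and leukocyte markers and 2 of 9 Müller glia markers were called higher, against 5.45% of all genes. The part of these shifts was not tested. Of the 4 lists around the complexes, Esrrb, a nuclear receptor among the regulators, was the only gene called (-1.38 ± 0.25, limma adjusted p = 0.00293). Cox8b and the pigment epithelium markers both stood above control after a single elevation at 3 months and below control after 4.

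Apart from Cox8b, the only genes whose 4xIOP and control libraries did not overlap were Sdhb, Cox4i2 and Cox7a1, which were higher, and Atp5d, which was lower, none of them past the test. Sdha was at 53.8 and 41.98 FPKM in 4xIOP control and 42.6 and 54.9 in 4xIOP. Sdhb, with 31.7 and 28.1 FPKM in 4xIOP control and 33.2 and 48.5 in 4xIOP, had both 4xIOP libraries above control, at 0.42 ± 0.28 (adjusted p = 0.621), and Sdhc was at 44.3 and 39.98 FPKM in 4xIOP control and 37.2 and 53.1 in 4xIOP. In complex III, Cyc1 was at 27.3 and 26.2 FPKM in 4xIOP control and 22.2 and 28.9 in 4xIOP. Uqcrfs1 was at 30.3 and 25.01 FPKM in 4xIOP control and 22.7 and 34.3 in 4xIOP. The values of Uqcrc1 were 60.3 and 58.1 FPKM in 4xIOP control and 56.8 and 68.2 in 4xIOP. In each of these complex III genes 4xIOP replicate 1 was the lowest of the 4 libraries and replicate 2 the highest. Uqcrc2 was at 43 and 33.1 FPKM in 4xIOP control and 34.2 and 57.2 in 4xIOP, Uqcr10 at 124 and 102 FPKM in 4xIOP control and 95.5 and 176 in 4xIOP, and Uqcr11 at 87.6 and 68.02 FPKM in 4xIOP control and 79.2 and 119 in 4xIOP, with overlap for all 3.

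In complex IV, Cox4i1 was at 285 and 230.0 FPKM in 4xIOP control and 228 and 368 in 4xIOP, and Cox4i2 was at 17.01 and 14.8 FPKM in 4xIOP control and 17.1 and 18.7 in 4xIOP. Cox4i2 as a share of Cox4i1 was 5.98% and 6.42% in 4xIOP control and 7.504% and 5.07% in 4xIOP, against between 4.58% and 7.63% in the 3mo libraries of the first table. Cox5a was at 51.98 and 39.7 FPKM in 4xIOP control and 42.01 and 53.2 in 4xIOP. Among the common forms, Cox6a1 was at 82.7 and 83.3 FPKM in 4xIOP control and 69.1 and 102 in 4xIOP, Cox6b1 at 158 and 137 FPKM in 4xIOP control and 120.2 and 211 in 4xIOP and Cox8a at 126 and 141 FPKM in 4xIOP control and 97.6 and 167 in 4xIOP. Each was highest in 4xIOP replicate 2 and had its groups overlapping. Cox6c was at 217 and 187 FPKM in 4xIOP control and 161 and 298 in 4xIOP, Cox7a2 at 104 and 85.5 FPKM in 4xIOP control and 79.6 and 144 in 4xIOP and Cox7b at 59.8 and 47.4 FPKM in 4xIOP control and 49.5 and 81.4 in 4xIOP. Cox7a2l, with 68.1 and 61.3 FPKM in 4xIOP control and 41.3 and 71.1 in 4xIOP, overlapped too. The forms of low level were no clearer, with Cox6a2 at 0.461 and 0.072 FPKM in 4xIOP control and 0.408 and 0.217 in 4xIOP, Cox6b2 at 3.45 and 4.12 FPKM in 4xIOP control and 3.18 and 3.87 in 4xIOP and Cox7a1 at 5.52 and 5.12 FPKM in 4xIOP control and 6.03 and 7.56 in 4xIOP. Cox7a1 had both 4xIOP libraries above control, at 0.32 ± 0.21 (adjusted p = 0.593).

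In complex V, Atp5a1 was at 166 and 154 FPKM in 4xIOP control and 145 and 210.4 in 4xIOP and Atp5b at 336 and 297 FPKM in 4xIOP control and 261 and 389 in 4xIOP. Atp5f1 was at 50.7 and 41.2 FPKM in 4xIOP control and 43.1 and 69.5 in 4xIOP, and Atp5h was at 84.7 and 69.7 FPKM in 4xIOP control and 59.99 and 101 in 4xIOP. The groups overlapped for these 4, with 4xIOP replicate 2 the highest for each and replicate 1 the lowest for all but Atp5f1. Of the membrane part, Atp5k was at 233 and 179 FPKM in 4xIOP control and 140.4 and 285 in 4xIOP and Atp5md at 54.03 and 40.03 FPKM in 4xIOP control and 36.5 and 61.2 in 4xIOP. The subunit c genes were at 23.6 and 19.2 FPKM in 4xIOP control and 17.8 and 28.2 in 4xIOP for Atp5g1, 2.12 and 2.29 FPKM in 4xIOP control and 2.003 and 2.66 in 4xIOP for Atp5g2 and 88.1 and 78.9 FPKM in 4xIOP control and 82.6 and 119 in 4xIOP for Atp5g3. The isoform kept for Atp5g3 differed between the tables (664 and 707 bases), as for no other gene of the 48. Over all 47 detected genes, 4xIOP replicate 2 was the highest of the 4 libraries for 42 and replicate 1 the lowest for 31.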

How the data were processed

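Bulk RNA-seq of 12 mouse retina libraries was used, from poly(A)-enriched strand-specific libraries made after TRIzol extraction. The authors aligned reads to mm10 with STAR 2.7.8a (per the submitters' processing notes) and used HOMER to count uniquely mapped exonic tags of the transcribed strand, with 1 isoform kept per locus. What the authors deposited are FPKM, with a separate table for the single-IOP and the repeated-IOP series. Replicates were not pooled, and 0 columns of values were left unmapped to a sample. The authors' own tests, not used here, were run in DESeq2.

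Tags per library were recovered from the FPKM and the isoform lengths, and at least 99.95% of the values checked came to whole reads within rounding. Tests covered genes whose mean reached 0.5 FPKM (13731 and 13718). In limma 3.58.1 (R 4.3.3), log2(FPKM + 0.5) was passed to lmFit and then to eBayes (trend on), the 8 single-IOP libraries as 4 groups (4 residual and 4.12 prior degrees of freedom) and the 4 repeated-IOP libraries alone (2 and 10.6). P-values were adjusted by Benjamini and Hochberg over all genes tested, and calls used thresholds of 0.05 on the adjusted p and 1 on the size of the log2 fold change. A fold change on this scale understates that of low genes. Transcripts of the 48 genes were compared with GENCODE M21 by blastn 2.17.0. The steps were tested on simulated data.

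The length trend was a natural spline with 5 degrees of freedom per library. Other alternatives were values of 0.1 and 1 added before the logarithm, no filter, a filter at 2 FPKM, factors by median of ratios, quantile normalization, voom on recovered reads, eBayes without trend, a replicate block, a call on the adjusted p without a fold, a fit of only the 2 groups and leaving out each library. Chosen after seeing the data were the removal of GC and length trends together and a crossed pairing. The genes, the lists and the markers were chosen with earlier results of these data known. Values per library are given for the core subunits, the alternative forms, the longest and shortest transcript of each complex, and for each comparison the called genes (over 10, the 5 largest falls and rises without overlap, and with none, the 3 smallest p-values). Samples were grouped by their labels. Depth and limits of 3 reads cover counting error only.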

Additional observations from a re-analysis of the deposited data

How the results depend on the processing

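With 2 libraries per group the counts of calls depended on single libraries and on how transcript length was treated. The largest age counts below with 1 library left out come without a share of all genes. Those counts can therefore not be compared with all genes. Lower calls with age in control eyes (33 of 45) came to 19 after removal of the length trend and 16 after removal of length and GC trends, and between 9 and 35 when 1 library was left out (17 without 18mo control replicate 1, 9 without replicate 2). In IOP eyes (34) these counts were 17, 12 and between 1 and 24 (1 without 3mo IOP replicate 1, 4 without replicate 2), while the higher calls went from 0 to 1 under both removals. The median above all genes in control eyes (-1.88) was -1.24 by quantile normalization, -0.81 without the length trend, -0.71 without both trends and between -2.57 and -1.18 without 1 library (the 3mo control replicates). In IOP eyes (-1.76) it was -1.62 with no filter, -1.25, -0.77, -0.65 and between -1.88 and -1.63. For a single IOP at 3mo the 1 call was 0 with a pseudocount of 0.1, no filter, median-of-ratios factors, quantile normalization, voom and the replicate block, and between 0 and 8 without 1 library (8 without 3mo control replicate 2), and the median (0.066) lay between -0.58 and 0.71. At 18mo the median (0.13) was 0.033 without the length trend and 0.041 without both, and that of the interaction (0.027) lay between -0.54 and 0.69 without 1 library. In 4xIOP the 1 lower call was 0 with no filter, at a mean of 2 FPKM and by voom, and between 0 and 1 without 1 library (0 without 4xIOP control replicate 1 and without either 4xIOP replicate). Without both trends the age difference of Cox5a in control eyes turned to 0.056 and that of Atp5g1 in IOP eyes to 0.11. The cause was not tested. Median-of-ratios scaling moved the median of all genes with age in control eyes from 0.16 to 0.0096, and the age calls among the 45 stayed within 1.5 times.

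Same-numbered libraries did not deviate together (correlations of -0.28, -0.53 and -0.29). With the replicate block 27 and 28 genes were called lower with age (all genes 10.1% and 9.69%), 0 were called higher in 3mo IOP and 1 lower in 4xIOP. With the pairing crossed the counts were 33, 35, 1 and 1 (all genes 12.2%, 12.4%, 2.17% and 0.831%).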
